A study of Mus musculus with 12 samples.

Results

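The genes described are 8 markers of universal and adventitial fibroblasts, the CD34 and CD81 positive cells of the outer and submucosal connective tissue: Cd34, Cd81, Pi16, Dpp4, Ly6a, Thy1, Dpt and Clec3b. They were taken by name from a table of 32052 genes, after Ensembl identifiers had been given symbols, and all 8 were present and passed the filter on low counts. The measurements are RNA sequencing of mouse gut stroma in 12 libraries, 3 in each of 4 groups. Small intestinal or colonic cells depleted of EPCAM-positive (epithelial) and CD45-positive (leukocyte) cells were sorted as GFP-negative or GFP-positive by a Rspo3-GFP transgene, which reports the gene of the secreted Wnt amplifier R-spondin 3. All animals were C57Bl6 and 8 to 12 weeks old, and the labels give no treatment and no other allele. Sorts by CD31 in the design are not analysed here. GFP-negative cells are all remaining stroma and not 1 cell type. The labels do not state that replicates came from separate animals, so p-values may measure technical spread in part.

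Universal fibroblasts are a population found in many organs, known by Pi16 and Dpt and held to be a reservoir for more specialised fibroblasts. In the wall of blood vessels and in the submucosa of the gut they lie as adventitial cells, and a CD34 and CD81 positive subset near the crypt base makes R-spondins and the BMP antagonist gremlin. None of the 8 genes is restricted to fibroblasts. CD34 is also carried by capillaries, Sca-1 (Ly6a) by endothelium and blood progenitors, CD90 (Thy1) by T cells, neurons and mouse lymphatic vessels, DPP4 by the brush border of the small intestine and by T cells, and CD81 by most cells. In bulk samples, fewer cells of a type and less RNA per cell cannot be told apart.

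The libraries held 6489835 to 12286054 counts. Rspo3 was at 2.28 to 13.7 CPM (a gene's share of the library's counts, scaled with TMM factors) in GFP-negative and 117 to 196 CPM in GFP-positive libraries, which checks the labels. The depletion was incomplete in some libraries. Ptprc, the CD45 gene, was at 304 CPM in small intestinal GFP-negative replicate 3 and at most 10.2 CPM elsewhere. Epcam was at 18.0 to 182 CPM in the colon and at 18.5 to 90.5 CPM in small intestinal GFP-negative cells, against at most 2.17 CPM in small intestinal GFP-positive cells. Pecam1, the CD31 gene of endothelium, was at 46.0 to 677 CPM over the 12 libraries, so endothelium was part of these sorts.

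Small intestinal GFP-positive cells held more of both secreted markers and of the surface markers Cd34, Pi16 and Thy1, and much less Dpp4. Of the 8 genes 5 rose and 1 fell (edgeR quasi-likelihood test, Benjamini-Hochberg adjusted p under 0.05, hereafter called). Over all 16757 genes tested 10.9% were called, 4.24% higher and 6.63% lower. For 6 members all 3 GFP-positive libraries lay above all GFP-negative ones and for 1 below, where 21.9% of all genes had groups without overlap, 9.56% higher and 12.3% lower. The median log2 difference was 1.36 over the 8 genes and -0.03 over all genes. In the colon 2 of the 8 rose, Cd81 and Thy1, and none fell, where 8.69% of all genes were called, 4.62% higher and 4.06% lower. Groups did not overlap for 6 members higher and 1 lower there, beside 35.6% of all genes, 17.8% in each direction. The colonic median was 0.50, beside -0.03 over all genes. The call was shared by both tissues for Thy1 alone. Composition of the libraries moved with GFP in the small intestine. Mitochondrial rRNA took 9.73 to 12.66% of counts without GFP and 5.35 to 7.92% with it, and protein-coding genes 65.94 to 76.13% and 78.87 to 83.86%, both without overlap. Colonic libraries had 6.26 to 9.04% and 5.83 to 7.10% mitochondrial rRNA, and 80.22 to 82.47% and 82.92 to 83.94% protein-coding counts. The part of these shares in the results was not tested.

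**Figure D1:**
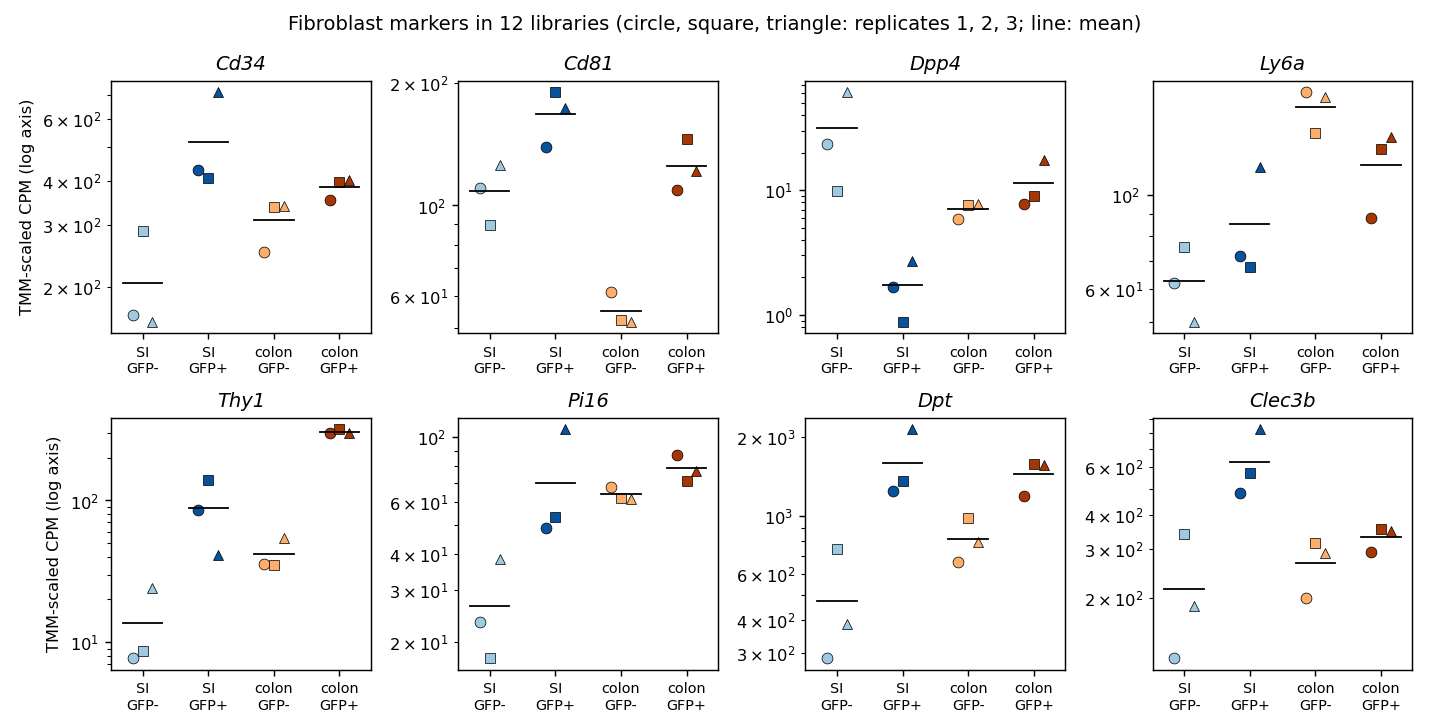
Level of each marker in the 12 libraries as TMM-scaled CPM on log axes that differ between panels; points are libraries (circle, square and triangle for replicates 1, 2 and 3) and lines are group means. Dpt, Clec3b and Cd34 are highest in small intestinal GFP-positive cells, Thy1 in colonic GFP-positive cells (299 to 318 CPM), Ly6a in the colon and Dpp4 in small intestinal GFP-negative cells.

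**Figure D2:**
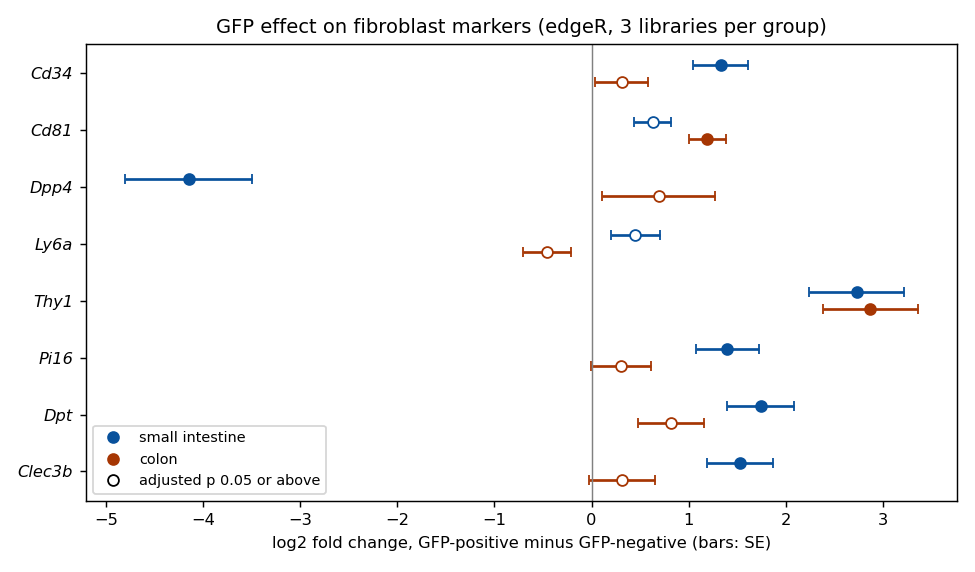
Log2 fold change between GFP-positive and GFP-negative cells for each marker in either tissue, with SE bars from the edgeR fit; filled points were called and open points were not. Dpp4 lies at -4.15 for small intestine and 0.69 for colon, and Thy1 at 2.73 and 2.87.

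Dpt, a secreted member, had the highest level of all members in every group. Dpt encodes dermatopontin, a small matrix protein that binds decorin and collagen fibrils (ENSMUSG00000026574, GRCm38 chromosome 1, 164796644 to 164824266, plus strand). Small intestinal GFP-negative libraries held 286, 749 and 387 CPM (replicates 1, 2 and 3, the order used throughout), and their GFP-positive counterparts 1247, 1360 and 2137 CPM. The groups did not overlap, with GFP-negative replicate 2 the highest of its group. Dpt rose 3.34-fold (log2 1.74 ± 0.35 SE, n = 3 per group, edgeR adjusted p = 0.00673). Colonic GFP-negative libraries held 668, 982 and 791 CPM, and the GFP-positive ones 1185, 1574 and 1565 CPM. These groups did not overlap either, but the log2 difference of 0.82 ± 0.34 was not called (edgeR adjusted p = 0.189). It was called when the fit held the colonic libraries alone (edgeR adjusted p = 0.00809).

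Clec3b encodes tetranectin, a secreted C-type lectin that binds plasminogen (ENSMUSG00000025784, chromosome 9, 123150946 to 123157432, plus strand). Small intestinal GFP-negative libraries had 120, 342 and 186 CPM and GFP-positive libraries 482, 570 and 824 CPM. Again GFP-negative replicate 2 was the highest of its group, and no library of 1 group reached the other. Clec3b rose 2.89-fold (log2 1.53 ± 0.34, edgeR adjusted p = 0.0123). The colonic values, 200, 316 and 290 CPM without GFP and 295, 356 and 351 CPM with it, overlapped, and the log2 difference of 0.31 ± 0.34 was not called (edgeR adjusted p = 0.701).

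Cd34 encodes a sialomucin of progenitors, capillaries and adventitial fibroblasts (ENSMUSG00000016494, chromosome 1, 194938819 to 194961279, plus strand). Small intestinal levels were 166, 289 and 160 CPM without GFP, against 429, 407 and 711 CPM with it. The lowest GFP-positive library thus lay above all GFP-negative ones, and Cd34 rose 2.51-fold (log2 1.33 ± 0.28, edgeR adjusted p = 0.00855). Colonic levels were 251, 336 and 340 CPM without GFP, against 352, 397 and 403 CPM with it. The groups lay close without overlap, and the log2 difference was 0.31 ± 0.27 (edgeR adjusted p = 0.618). Blood endothelial genes, a second source of Cd34, had summed levels of 696 to 2490 CPM in small intestinal GFP-negative, 695 to 3030 in GFP-positive, 222 to 888 in colonic GFP-negative and 1200 to 1380 CPM in colonic GFP-positive cells. Of those 12 genes 1 was called higher and 7 lower in small intestinal GFP-positive cells, and 4 and 4 in the colon. Over all genes the shares were 4.24% and 6.63%, and 4.62% and 4.06%. The sums thus joined genes of opposite course. With GFP, mean Aqp1 went from 77.7 to 1050 CPM in the small intestine and from 11.6 to 381 CPM in the colon. Kdr went from 246 to 502 and from 113 to 627 CPM. Mean Flt1 instead went from 379 to 3.11 and from 130 to 5.06 CPM, and Plvap from 638 to 20 and from 160 to 27.3 CPM. Sox17 of that list was at 0 in small intestinal GFP-positive cells, and the part of these cells in the Cd34 level was not tested.

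Pi16, a peptidase inhibitor of the CAP family and the name-giving marker of the universal fibroblast, was lower in level (ENSMUSG00000024011, chromosome 17, 29317680 to 29330593, plus strand). Small intestinal libraries had 23.4, 17.6 and 38.4 CPM when GFP-negative, against 49.0, 53.6 and 107 CPM when GFP-positive. The groups did not overlap, and GFP-positive replicate 3 stood highest. Pi16 rose 2.64-fold (log2 1.40 ± 0.32, edgeR adjusted p = 0.0132), a call that ended without GFP-negative replicate 1 (edgeR adjusted p = 0.0534). Colonic Pi16 was at 67.9, 62.1 and 61.6 CPM without GFP and at 87.4, 71.0 and 76.8 CPM with it, a log2 difference of 0.30 ± 0.31 (edgeR adjusted p = 0.694). When the small intestinal fit held only its own 6 libraries, Cd34, Clec3b, Dpt and Pi16 were not called, with edgeR adjusted p of 0.0775, 0.0847, 0.0606 and 0.106. On the deposited log2(TPM + 1) scale Cd34 and Pi16 were not called (limma adjusted p of 0.0581 and 0.0758).

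Cd81 encodes a tetraspanin, a membrane organiser used with CD34 to sort submucosal fibroblasts (ENSMUSG00000037706, chromosome 7, 143052739 to 143067934, plus strand). Colonic GFP-negative libraries had 61.3, 52.3 and 51.8 CPM, and GFP-positive ones 109, 145 and 121 CPM. The groups were well apart, and Cd81 rose 2.27-fold (log2 1.19 ± 0.19, edgeR adjusted p = 0.00199). Small intestinal libraries had 110, 89.7 and 126 CPM when GFP-negative and 139, 190 and 174 CPM when GFP-positive, also without overlap. There the log2 difference of 0.63 ± 0.19 just missed the threshold (edgeR adjusted p = 0.0516). It passed without GFP-positive replicate 1 (0.0428), without GFP-negative replicate 3 (0.0389) and with DESeq2 (0.0449). The difference between the tissues' GFP effects was 0.56 ± 0.27 for Cd81 and was not called (edgeR adjusted p = 0.365).

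The start regions of Dpt, Cd34 and Cd81 are shown because Dpt and Cd34 moved closely together over the 12 libraries and Cd81 less closely. Pearson's r was 0.96 for Dpt and Cd34, against 0.37 and 0.32 for Cd81 with these. Spearman's rho was 0.92, against 0.59 and 0.58. Each runs from 250 bases before to 25 bases after the RefSeq start (GRCm38.p6, plus strand), and capitals mark TATAAA (the TATA box) or GGGCGG (the GC box), searched on both strands.
Dpt, chr1:164796413-164796687: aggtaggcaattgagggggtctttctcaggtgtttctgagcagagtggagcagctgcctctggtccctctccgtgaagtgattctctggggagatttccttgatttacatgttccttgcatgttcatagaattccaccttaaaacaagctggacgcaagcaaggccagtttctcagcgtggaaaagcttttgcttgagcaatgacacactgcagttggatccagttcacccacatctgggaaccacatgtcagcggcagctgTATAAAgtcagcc
Cd34, chr1:194938571-194938845: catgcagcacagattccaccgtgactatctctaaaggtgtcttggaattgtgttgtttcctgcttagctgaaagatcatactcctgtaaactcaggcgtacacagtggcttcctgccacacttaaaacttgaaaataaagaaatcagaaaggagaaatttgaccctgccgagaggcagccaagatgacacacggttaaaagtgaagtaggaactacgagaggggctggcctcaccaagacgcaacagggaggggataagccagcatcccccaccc
Cd81, chr7:143052500-143052774: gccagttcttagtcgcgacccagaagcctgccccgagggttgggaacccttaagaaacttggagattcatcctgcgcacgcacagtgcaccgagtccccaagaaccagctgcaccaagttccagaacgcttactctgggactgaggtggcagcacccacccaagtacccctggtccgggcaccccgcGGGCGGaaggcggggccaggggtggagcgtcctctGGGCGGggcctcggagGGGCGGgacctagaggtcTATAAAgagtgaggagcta
The Cd81 window was 63.6% G or C with 16 CpG sites. It held 3 GC boxes before its RefSeq start and 1 TATAAA, 6 bases after that start. The Dpt and Cd34 windows were 49.5% and 48.4% G or C with 4 and 6 CpG sites. Dpt had 1 TATAAA, 12 bases after its RefSeq start, and Cd34 had neither motif. Of 32851 RefSeq start regions of that length 13.0% hold TATAAA and 34.4% hold GGGCGG, and their medians are 52.4% G or C and 6 CpG sites. A match is a description of the letters only. RefSeq windows were at hand for 5 of the 8 genes.

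Ly6a encodes Sca-1, a GPI-anchored antigen of stem and stromal cells (ENSMUSG00000075602, chromosome 15, 74994877 to 74998031, minus strand). It belongs to a cluster of near relatives, so its estimated counts may hold or lose reads of paralogs. No GFP difference was called for it. Small intestinal libraries had 61.8, 75.4 and 50.2 CPM when GFP-negative and 71.7, 67.5 and 117 CPM when GFP-positive (log2 0.45 ± 0.25, edgeR adjusted p = 0.31). Colonic libraries had 175, 141 and 171 CPM when GFP-negative and 88.4, 129 and 138 CPM when GFP-positive (log2 -0.46 ± 0.25, edgeR adjusted p = 0.356). The estimates had opposite signs, and their difference was not called either (-0.91 ± 0.35, edgeR adjusted p = 0.244).

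Thy1, the gene of the small GPI-anchored immunoglobulin protein CD90, showed the largest rise among the 8 in either tissue (ENSMUSG00000032011, chromosome 9, 44043384 to 44048579, plus strand). Small intestinal libraries had 7.70, 8.67 and 24.3 CPM of it without GFP, against 85.5, 140 and 41.3 CPM with GFP. The groups did not overlap, although replicate 3 was the highest of the one and the lowest of the other. Thy1 rose 6.65-fold (log2 2.73 ± 0.49, edgeR adjusted p = 0.00458). Colonic libraries went from 35.6, 35.2 and 54.2 CPM without GFP to 300, 318 and 299 CPM with it, a 7.33-fold rise (log2 2.87 ± 0.49, edgeR adjusted p = 0.00327). The difference of these effects was 0.14 ± 0.66 (edgeR adjusted p = 0.967).

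Markers of lymphatic endothelium rose with Thy1 between the GFP states of both tissues. The summed level of 10 lymphatic genes was 655, 419 and 289 CPM in small intestinal libraries without GFP, against 11670, 15400 and 4531 CPM with it. The colonic sums were 319 to 439 CPM and 18500 to 21700 CPM. Of the 10 genes 8 rose in small intestinal and 9 in colonic cells, beside 4.24% and 4.62% of all genes. None of the 10 was at 0 in a whole group. Within small intestinal GFP-positive libraries the order of the lymphatic sum and of Thy1 was the same, with replicate 2 highest and replicate 3 lowest, whereas Dpt, Clec3b, Cd34 and Pi16 were highest in replicate 3. Colonic GFP-positive libraries also had 1 order for both. Small intestinal GFP-negative libraries had opposite orders, with Thy1 at 7.70, 8.67 and 24.3 CPM. Colonic GFP-negative replicate 3 likewise had the lowest lymphatic sum (319 CPM) and the most Thy1 (54.2 CPM) of its group. T cell markers, another source of Thy1, summed to 152 CPM in small intestinal GFP-negative replicate 3, the library with the most Thy1 of its group. In all others the sum was at most 32.9 CPM. Colonic sums were 3.67 to 12.3 CPM without GFP and 19.2 to 32.9 CPM with it. Most of the latter was Cd2, at a mean of 20.2 CPM, while mean Cd3e was 0.267 CPM and Trbc2 was at 0. The part of lymphatic, T or neural cells in Thy1 was not tested.

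**Figure D3:**
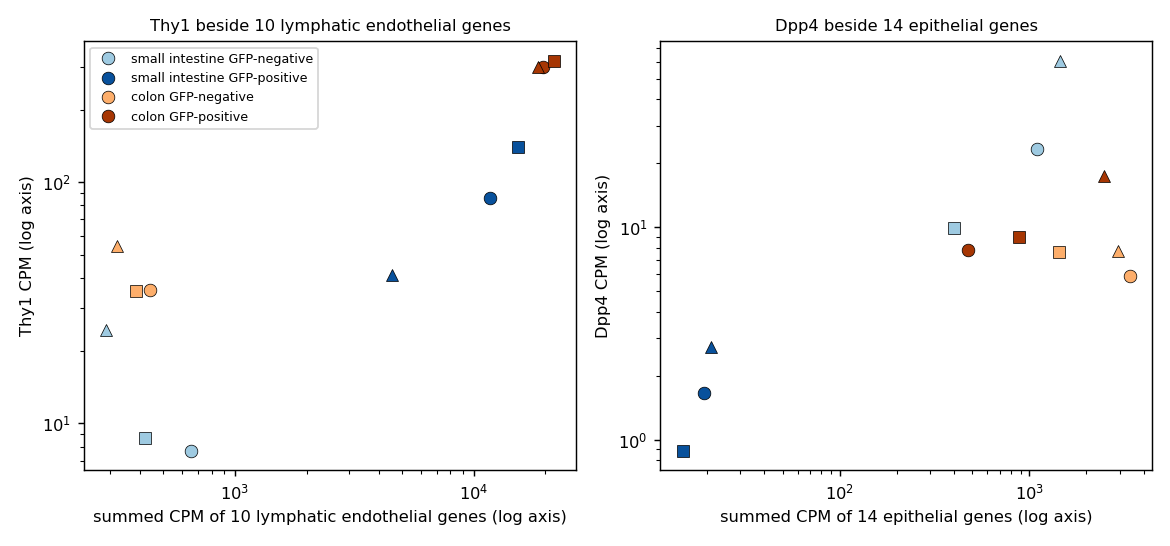
Left, Thy1 against the summed CPM of 10 lymphatic endothelial genes; right, Dpp4 against the summed CPM of 14 epithelial genes; each point is a library, both axes are logarithmic and symbols give the replicate (circle, square and triangle for 1, 2 and 3). Colonic GFP-positive libraries lead in both values on the left, and small intestinal GFP-positive libraries are lowest in both on the right (14.9 to 21 summed CPM).

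Dpp4, the gene of a membrane protease that trims chemokines and incretins, went against the other members in the small intestine alone (ENSMUSG00000035000, chromosome 2, 62330073 to 62412231, minus strand). Small intestinal libraries had 23.3, 9.92 and 60.6 CPM without GFP, against 1.66, 0.887 and 2.72 CPM with it, the latter from 20, 9 and 23 counts. The groups were far apart and Dpp4 fell 17.8-fold (log2 -4.15 ± 0.65, edgeR adjusted p = 0.00192). On the deposited log2(TPM + 1) scale, which compresses so low a gene, the difference was -0.62 and not called (limma adjusted p = 0.176). Colonic libraries had 5.87, 7.65 and 7.73 CPM without GFP and 7.80, 8.98 and 17.5 CPM with it (log2 0.69 ± 0.58, edgeR adjusted p = 0.599). Dpp4 was the 1 member of 8 whose GFP effect differed between tissues, by 4.84 ± 0.86 (edgeR adjusted p = 0.0196), where 2.06% of all genes were called in that test, 1.16% higher and 0.895% lower. This call ended without small intestinal GFP-positive replicate 1 (0.0557) and without colonic GFP-negative replicate 2 (0.0652) or 3 (0.0595). It was not made by limma-voom (4.4, adjusted p = 0.128), on the deposited log2(TPM + 1) scale (0.74, limma adjusted p = 0.371) or with rescaled TPM (2.80, limma adjusted p = 0.193).

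Epithelial transcripts moved with Dpp4 in the small intestine. The summed level of 14 epithelial genes was 1100, 402 and 1450 CPM in small intestinal GFP-negative replicates 1 to 3, the same order as Dpp4, and 14.9 to 21 CPM in GFP-positive libraries. Of these genes 13 of 14 fell in the small intestine, beside 6.63% of all genes. Myo7b, a brush border myosin, was at 0 in all 3 GFP-positive libraries there. Apob, which enterocytes use to build chylomicrons, was at 190, 43.5 and 216 CPM in the GFP-negative libraries and at most 0.499 CPM in the GFP-positive ones. In the colon the epithelial sum was 1440 to 3400 CPM in GFP-negative and 472 to 2480 CPM in GFP-positive cells. None of the 14 was called, beside 8.69% of all genes. Dpp4 lay slightly higher with GFP there. Colonic GFP-negative replicate 1 had the highest sum of its group (3398 CPM) and the least Dpp4 (5.87 CPM). In colonic GFP-positive libraries both rose from replicate 1 to 3. Leukocyte genes summed to 3010 CPM in small intestinal GFP-negative replicate 3, the library with the most Dpp4. In all others the sum was at most 403 CPM. Cd74 alone was at 338 to 386 CPM in colonic GFP-positive cells, where the sums were 356 to 403 CPM. None of the 8 leukocyte genes tested was called by GFP state in either tissue, beside 10.9% and 8.69% of all genes. The part of epithelium and leukocytes in Dpp4 was not tested. Without small intestinal GFP-negative replicate 3 the small intestinal Dpp4 difference was -3.24 on the log2 scale and still called (edgeR adjusted p = 0.00215).

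Between the tissues, GFP-positive cells differed in Dpp4 and GFP-negative cells in Cd81, Ly6a and Pi16. These comparisons share libraries with those above. In GFP-positive cells 1 of 8 was called higher in colon (of all genes 4.57% were called, 2.75% higher and 1.81% lower), Dpp4 at 2.71 ± 0.63 (edgeR adjusted p = 0.0283). That call ended without small intestinal GFP-positive replicate 1 (0.112) or 2 (0.0999) and without colonic GFP-positive replicate 2 (0.0564) or 3 (0.109), and it was not made by limma-voom (0.225). The Dpp4 difference was 0.50 on the deposited log2(TPM + 1) scale (limma adjusted p = 0.277) and 1.83 with rescaled TPM (0.196), so that 7 of 15 alternatives lost the call. Thy1 was 3.44-fold higher in colonic GFP-positive cells (log2 1.78 ± 0.46, edgeR adjusted p = 0.0542), just outside the threshold. It passed without small intestinal GFP-positive replicate 2 (0.0315), with DESeq2 (0.0012) and with limma-voom (0.0191).

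In GFP-negative cells 2 of 8 were higher and 1 lower in colon, where 4.21% of all genes were called, 2.20% higher and 2.01% lower. Ly6a rose 2.59-fold (log2 1.38 ± 0.25, edgeR adjusted p = 0.0113) and was called in each of the 15 alternative fits. Pi16 rose 2.42-fold (log2 1.28 ± 0.32, edgeR adjusted p = 0.0439), a call lost in 6 of 15, among them the fits without small intestinal GFP-negative replicate 1 (0.12) or 2 (0.0754) and without colonic GFP-negative replicate 1 (0.105), 2 (0.12) or 3 (0.129). Cd81 fell by 0.98 ± 0.19 on the log2 scale (edgeR adjusted p = 0.0155), which ended without colonic GFP-negative replicate 2 (0.0912) or 3 (0.104). On the deposited log2(TPM + 1) scale the Cd81 difference was -0.33 and not called (limma adjusted p = 0.341). With a replicate block Dpp4 was also called, at -1.81 (edgeR adjusted p = 0.0335) in place of -2.14 (0.0673), as it was without small intestinal GFP-negative replicate 2 (0.0109). That omission also added Cd34 (0.0455) and Dpt (0.0193). In the tissue comparisons the replicate block matched libraries by replicate number alone. Column names share a number between the tissues for replicate 3 only. Deviations of same-numbered GFP-negative libraries from their group means correlated between tissues at 0.098, 0.028 and 0.223.

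The order of the 4 groups differed between members. Cd34 and Clec3b ran from small intestinal GFP-positive (516 ± 170 and 625 ± 177 CPM, SD, n = 3) through colonic GFP-positive (384 ± 27.9 and 334 ± 34.2) and colonic GFP-negative (309 ± 50.6 and 269 ± 60.7) to small intestinal GFP-negative cells (205 ± 72.9 and 216 ± 114). Dpt had the same order, from 1580 ± 485 through 1440 ± 222 and 814 ± 158 to 474 ± 244 CPM. Colonic GFP-negative and small intestinal GFP-negative libraries overlapped for all 3 genes, and the GFP-positive groups overlapped for Dpt alone. Pi16 ran from colonic GFP-positive (78.4 ± 8.28 CPM) to small intestinal GFP-negative cells (26.5 ± 10.8 CPM), and its upper 3 groups overlapped as neighbours. Thy1 had 306 ± 10.9 CPM in colonic GFP-positive, 88.9 ± 49.4 in small intestinal GFP-positive, 41.7 ± 10.9 in colonic GFP-negative and 13.5 ± 9.31 CPM in small intestinal GFP-negative cells, with overlap of the middle pair alone. Cd81 was lowest in colonic GFP-negative cells (55.1 ± 5.35 CPM), and its upper 3 groups overlapped as neighbours. Ly6a was highest there (162 ± 18.8 CPM), and the lower 3 groups overlapped as neighbours.

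Levels were set against each other per transcript length, as TPM rescaled so that protein-coding genes sum to a fixed total. Dpt was the highest member in every group, at 568 ± 263, 1740 ± 562, 1050 ± 249 and 1670 ± 254 TPM in small intestinal GFP-negative, small intestinal GFP-positive, colonic GFP-negative and colonic GFP-positive cells (SD, n = 3). Thy1 was sixth of 8 in both GFP-negative groups (45.0 ± 30.9 and 171 ± 18.5 TPM) and second in colonic GFP-positive cells (1180 ± 17.6 TPM). Ly6a was the third in colonic GFP-negative cells (627 ± 63.2 TPM) and sixth in small intestinal GFP-positive cells (218 ± 89.2 TPM). Pi16 was seventh and Dpp4 eighth in all 4 groups, with Dpp4 between 1.64 ± 1.87 and 15.1 ± 12.7 TPM.

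The members were also set against fibroblast collagens of the same library. The reference was the mean log2 CPM of 8 collagen genes (Col1a1, Col1a2, Col3a1, Col5a1, Col5a2, Col6a1, Col6a2 and Col6a3), which was 9.97, 11.46 and 10.14 in small intestinal libraries without GFP and 11.48, 11.58 and 12.10 with it. GFP-negative replicate 2 thus reached nearly the GFP-positive range. In the colon the reference was higher in GFP-negative (11.36 to 11.55) than in GFP-positive cells (10.73 to 10.95). Of the 8 collagens 4 rose among small intestinal cells, beside 4.24% of all genes. None was called among colonic ones, where 8.69% of all genes were.

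For 2 members the level relative to the collagens was higher in all small intestinal GFP-positive libraries than in all GFP-negative ones, as it was for 0.889% of all genes. They were Dpt, whose log2 level minus that of the collagens was -1.80, -1.91 and -1.54 against -1.20, -1.17 and -1.04, and Clec3b, at -3.05, -3.04 and -2.60 against -2.57, -2.43 and -2.42. Cd34 overlapped on this scale (-2.89 ± 0.36 and -2.76 ± 0.14, SD, n = 3), as did Pi16 (-5.86 ± 1.29 and -5.68 ± 0.28). Thy1 overlapped too, at -6.98, -8.31 and -5.51 without GFP and -5.06, -4.45 and -6.73 with it, so that it was lower with GFP in replicate 3. Cd81 was at -3.18, -4.97 and -3.16 without GFP and -4.36, -4.01 and -4.66 with it, lower with GFP in replicates 1 and 3. Ly6a (-4.57 ± 0.61 and -5.35 ± 0.14) and Dpp4 were lower without overlap, as were 36.7% of all genes. In the colon 7 of 8 were higher without overlap, all but Ly6a, but so were 50.5% of all genes, and none was lower, beside 6.04% of all genes. The colonic shift was largest for Thy1 (-6.12 ± 0.45 to -2.58 ± 0.07), Cd81 (-5.69 ± 0.13 to -3.88 ± 0.16) and Dpt (-1.83 ± 0.28 to -0.36 ± 0.26). No test was made on this scale.

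**Figure D4:**
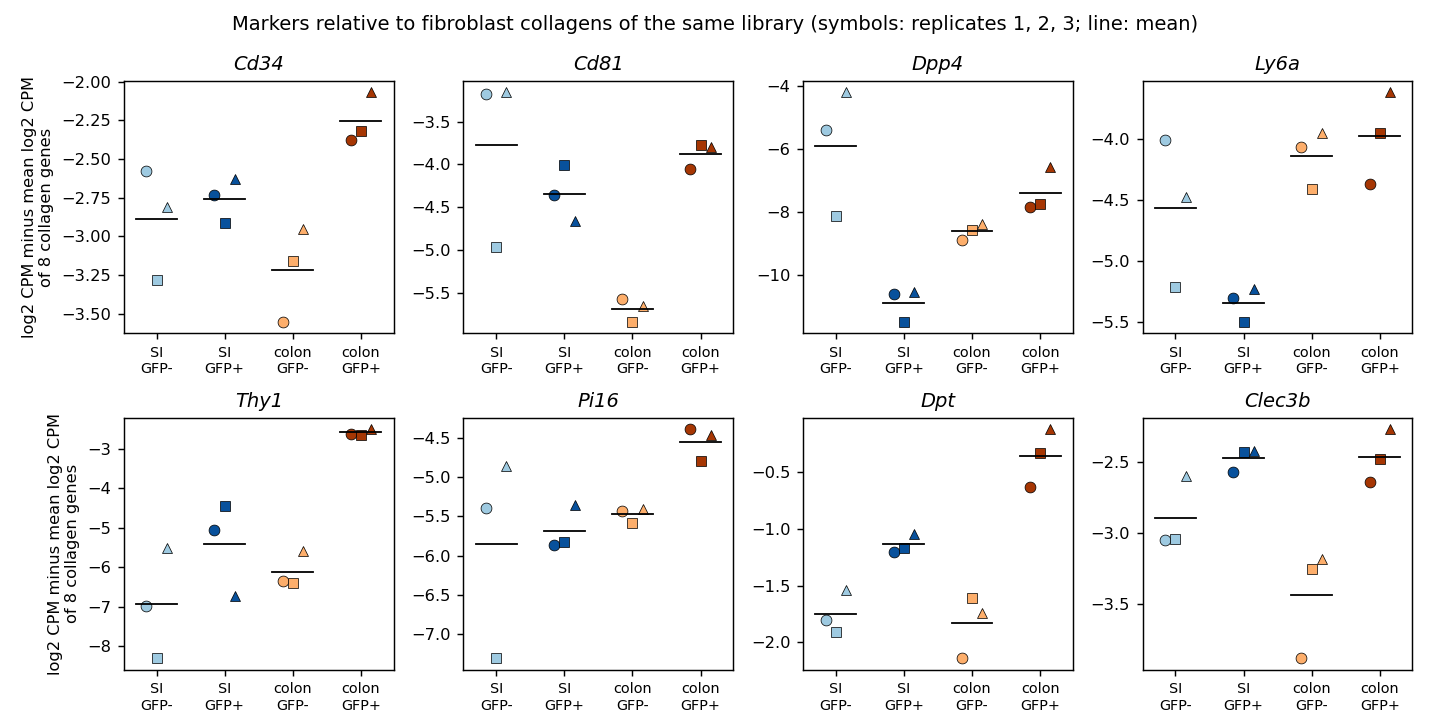
Log2 CPM of each marker minus the mean log2 CPM of 8 collagen genes in the same library, by group; points are libraries, symbols replicates and lines means, and vertical axes differ between panels and do not start at 0. Cd34 overlaps between the small intestinal groups and is separated in the colon, and Ly6a overlaps in the colon.

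Many other genes known from adventitial fibroblasts also rose with GFP. Of 34 such genes, all tested, 20 rose and 3 fell in small intestinal GFP-positive cells, with a median log2 difference of 1.27. Over all genes 4.24% were called higher and 6.63% lower. Pcolce2, a procollagen processing enhancer, rose by 3.02 ± 0.26 (edgeR adjusted p = 8.03e-05), from 19.8 to 161 CPM. The complement gene C3 rose by 2.96 ± 0.28, the ferritin receptor gene Scara5 by 3.13 ± 0.34 and the matrix gene Fndc1 by 2.01 ± 0.22. The 3 that fell were Procr (-2.37 ± 0.52), Ly6c1 (-1.38 ± 0.34) and Anxa3 (-1.34 ± 0.31). In the colon 8 rose and 3 fell, with a median of 0.38, beside 4.62% higher and 4.06% lower over all genes. Pcolce2 rose there by 2.27 ± 0.25 (edgeR adjusted p = 0.000233), the alarmin Il33 by 2.20 ± 0.30 and C3 by 1.83 ± 0.26, while Col15a1, a basement membrane collagen used to define a universal fibroblast state, fell by 2.53 ± 0.30 (edgeR adjusted p = 0.000386). With only the libraries compared in the fit, 11 rose and 0 fell among small intestinal cells, and 14 rose and 5 fell among colonic ones. The share called over all genes also moved in these fits, from 10.9% to 5.53% and from 8.69% to 20.6%.

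The GFP effect differed between tissues for 2 of the 34, both lower in colon: Lum, a proteoglycan (-2.38 ± 0.49), and Col15a1 (-2.22 ± 0.41). The count of calls in that test ran from 0 to 18 when 1 library was left out, and was 18 without small intestinal GFP-negative replicate 2, the library with the high collagens. It was 0 without colonic GFP-negative replicate 2 or 3 or GFP-positive replicate 2. The share over all genes moved likewise, from 2.06% with all libraries to 5.94% without that small intestinal replicate. In the fits with 0 calls it was 0.385%, 0.402% and 0.546%. Without the same small intestinal replicate, Cd34 (-1.36, edgeR adjusted p = 0.0327), Clec3b (-1.73, 0.0202) and Dpt (-1.42, 0.0432) had a smaller GFP effect in colon. With all libraries these differences were -1.02 ± 0.39 (edgeR adjusted p = 0.236), -1.22 ± 0.48 (0.246) and -0.91 ± 0.48 (0.426). Pi16, at -1.11 ± 0.44 (edgeR adjusted p = 0.258), was called with a replicate block (-1.09, 0.0497). A weaker rise in colon was therefore not established for these 4 genes over all 12 libraries.

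Between tissues, GFP-negative cells had 10 of the 34 genes higher and 1 lower in colon, with a median of 0.65. Of all genes 2.2% were higher and 2.01% lower. The decay accelerator Cd55 rose by 2.09 ± 0.26 (edgeR adjusted p = 0.00135) and the guidance factor Sema3c by 1.77 ± 0.29, followed by Adgrd1 at 1.43 ± 0.24 and Igfbp6 at 1.23 ± 0.22. In GFP-positive cells 5 were higher and 1 lower (median 0.09), among them Anxa3 at 2.00 ± 0.31, with Col15a1 lower at -1.52 ± 0.29. Of all genes 2.75% were higher and 1.81% lower there. Leaving out 1 library gave 3 to 16 calls in GFP-negative cells, 16 without small intestinal replicate 2 and 3 without colonic replicate 3. Those fits called 6.99% and 1.05% of all genes. In GFP-positive cells leaving out 1 library gave 2 to 5 calls, beside 2.32% to 3.48% of all genes.

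**Figure D5:**
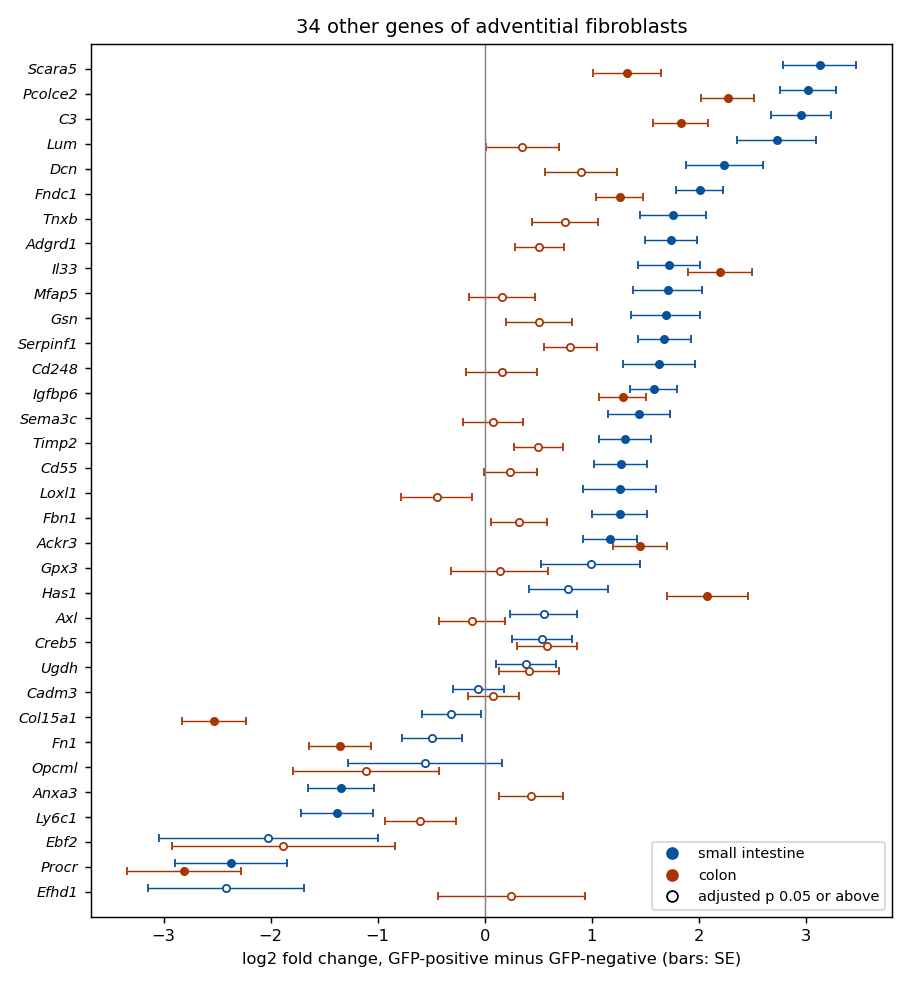
Log2 fold change between GFP-positive and GFP-negative cells for 34 other genes of adventitial fibroblasts, ordered by the small intestinal value, with SE bars; filled points were called. In the small intestine 20 filled points lie to the right of 0 and 3 to the left, and in the colon 8 and 3.

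Some structural relatives of the members were also called. Of 19 relatives tested, out of 23 listed, 1 rose and 3 fell in the small intestine (median 0.02), and 5 rose in colonic cells (median 0.00), beside 10.9% and 8.69% of all genes called in either direction. Fap, the fibroblast activation protease and nearest relative of DPP4, rose in both tissues although Dpp4 did not. Small intestinal libraries had 8.42, 5.75 and 6.11 CPM without GFP, against 25.5, 19.8 and 35.2 CPM with it (log2 1.98 ± 0.26, edgeR adjusted p = 0.000659). In the colon it went from 6.16, 9.14 and 8.99 to 72.7, 71.3 and 87.9 CPM (log2 3.25 ± 0.27, edgeR adjusted p = 4.96e-05), so that no group overlapped with its counterpart. Podxl, a CD34-family sialomucin of endothelium, rose by 3.16 ± 0.64 in the colon, and the tetraspanin Cd9 by 1.26 ± 0.28. The tetraspanin Tspan8 fell by 5.54 ± 0.70 in the small intestine, and Ly6c1, a relative of Ly6a, by 1.38 ± 0.34.

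Patterns over the 12 libraries were compared with Pearson's r of log2 CPM, as a description of libraries that share 4 groups. Dpt correlated at 0.96 with Cd34 and 0.89 with Clec3b, and Cd34 at 0.93 with Clec3b. Cd81 gave 0.32, 0.37 and 0.46 with Cd34, Dpt and Clec3b, and -0.56 with Ly6a. By rank (Spearman's rho) these 4 values for Cd81 were 0.58, 0.59, 0.65 and -0.55. Ranks gave 0.92 for Dpt with Cd34, 0.90 for Dpt with Clec3b and 0.92 for Cd34 with Clec3b. Dpp4 was negative with all other members, from -0.15 with Ly6a to -0.75 with Clec3b. Among about 7105 protein-coding genes whose mean log2 CPM reached 4, the most similar to Cd34 were Gstm1, Svep1 and Pcdhgc3 (0.970, 0.970 and 0.969), and Gstm1 and Pcdhgc3 also led for Dpt with Timp2 (0.967, 0.971 and 0.966). Clec3b was closest to Serping1, Gsn and Thbs3 (0.974, 0.972 and 0.965) and Pi16 to Erap1, Ssr1 and Ncstn (0.947, 0.912 and 0.898). Cd81 was closest to Angptl1, Ccnd2 and Slc43a3 (0.928, 0.915 and 0.911) and Ly6a to S100a6, Slc25a24 and St6galnac6 (0.947, 0.939 and 0.938). For Thy1 these were Pdcd6ip, Plekha3 and Cyb5r3 (0.974, 0.968 and 0.955), and for Dpp4 Aff1, Stx11 and Rbm33 (0.940, 0.928 and 0.920).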

How the data were processed

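RNA of sorted stromal cells was extracted with a Qiagen kit and treated with ZapR, per the labels' protocols. Salmon 1.1.0, R 3.6.1 and the build mm10 are named in the submitters' processing notes; annotation, filters and rounding are not given in the sources used here. The deposited estimated counts are whole numbers per gene and were used as rounded counts. The second deposited table holds log2(TPM + 1) values by the authors. Symbols came from GENCODE M21 (GRCm38) for 32001 of 32052 identifiers.

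Counts were tested with edgeR 4.0.16 (robust quasi-likelihood, TMM, filterByExpr minimum count 10) in R 4.3.3, with 1 mean per group over 12 libraries, and p-values were Benjamini-Hochberg adjusted over 16757 genes. The fit was tested on simulated data. There were 5 comparisons: GFP state in each tissue, their difference, and tissue in each GFP state. CPM use TMM factors, log2 CPM a prior count of 2. Alternatives were DESeq2 1.42.0, limma 3.58.1 (voom and log2 TPM), RLE factors, no filter, protein-coding genes only, only the libraries compared, a replicate block and leaving out each library. Rescaling TPM to protein-coding genes was chosen after seeing the data.

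The members and gene lists were chosen with earlier results of these data known. Named genes were the members, Rspo3, Ptprc, Epcam and Pecam1, up to 4 called adventitial genes per comparison and up to 3 of other lists by adjusted p, and the 3 genes most correlated with each member. Sox17, Aqp1, Kdr, Flt1, Plvap, Cd2, Cd3e, Trbc2 and Cd74, and the values of Fap in each library, were added after their values were seen. So were the small intestinal GFP differences of Procr and Anxa3. Antisense genes overlapping Cd34, Cd81 and Pi16 had totals of 76, 154 and 7 counts over 12 libraries.

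Same-numbered small intestinal sorts deviated together from their group means (r of 0.323, 0.179 and 0.166), and their column names share a number. The numbers were therefore taken to pair them, but only in the alternative fit with a replicate block. The main edgeR fit held no replicate term, so its small intestinal p-values treat the paired sorts as independent libraries.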

Additional observations from a re-analysis of the deposited data

Results flagged for a closer look

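The GFP effect on Dpp4 differed between the tissues. The interaction term, colon minus small intestine, was 4.84 ± 0.86 on the log2 scale (edgeR adjusted p = 0.0196), from -4.15 ± 0.65 (small intestine) and 0.69 ± 0.58 (colon), with 3 libraries per group. All 3 small intestinal GFP-positive libraries lay below all 3 GFP-negative ones, and all 3 colonic GFP-positive libraries lay above all 3 GFP-negative ones by a narrow margin (7.80 against 7.73 CPM). Epithelial sums moved with Dpp4 among small intestinal libraries, and their part in the difference was not tested. Leukocyte sums overlapped between the small intestinal groups, at 86.7, 52.6 and 3005 CPM without GFP and 25.5, 55.1 and 99.1 CPM with it. Cd74 alone was at 42.5 to 1940 CPM without GFP and 23.5 to 59.4 CPM with it.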

How the results depend on the processing

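Of 640 values of single members under alternatives 578 kept direction and side of the threshold, 30 lost a call, 24 gained one and 8 changed sign. The number of members called in the small intestine, 6, became 3 on the deposited log2(TPM + 1) scale and 2 with only the libraries compared, where the share called over all genes went from 10.9% to 4% and 5.53%. It ran from 5 to 7 without 1 library, beside 7.04% to 15% of all genes. In the colon the number was 2 in each fit without 1 library, beside 4.55% to 6.47% of all genes. For colon minus small intestine in GFP-positive cells the count of 1 became 2 with DESeq2, 2 with protein-coding genes only, 0 with rescaled TPM and 3 with only the libraries compared, and 0 to 1 without 1 library. The share over all genes, 4.57% in the main fit, was 7.71%, 5.92%, 2.49%, 6.61% and 2.32% to 3.48% in these. In GFP-negative cells the 3 became 5 with DESeq2 and 1 to 5 without 1 library. There the share over all genes went from 4.21% to 9.06% and to 1.05% to 6.99%. For the difference of the GFP effects the 1 became 0 with limma-voom, 0 on the deposited log2 scale, 0 with rescaled TPM and 0 to 4 without 1 library. Over all genes the 2.06% became 1.07%, 0.955%, 0.907% and 0.385% to 5.94%. The replicate block gave 6, 2, 1, 4 and 2 members called, the last with Dpp4 and Pi16, and changed no other call than those of Pi16 and Dpp4 given in the report. Of all genes it called 11.5%, 9.16%, 5.09%, 5.63% and 1.97%. Same-numbered colonic sorts hardly deviated together (r of 0.009, 0.047 and 0.09, and 1 of 3 correlated best with its own number), so there the samples share only a number, and the block left both calls.

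The changes of sign were all among values not called. In GFP-positive cells, colon minus small intestine became 0.15 for Cd34, 0.02 for Cd81 and 0.33 for Dpt on the deposited log2 scale. Without 1 library it ran from -0.03 to 0.61 for Pi16 and from -0.28 to 0.15 for Dpt, which was also above 0 (0.02) without colonic GFP-positive replicate 1. The difference of the GFP effects on Thy1 ran from -0.57 to 0.62, and was below 0 without small intestinal GFP-negative (-0.57) or GFP-positive replicate 3 (-0.21). Where no value shows otherwise, the cause was not tested. Dpp4 in small intestinal GFP-positive cells rests on 9 to 23 counts per library, which limits its precision.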

Other observations

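Markers of the fibroblast types next to the adventitial one moved in different ways beside the members. Over all genes 4.24% were called higher and 6.63% lower with GFP in the small intestine, and 4.62% and 4.06% in the colon. Of 12 genes of the submucosal trophocyte, 9 rose and 1 fell in small intestinal GFP-positive cells (median 2.08), and 4 rose and 3 fell in colonic ones (median -0.06). Their summed level was 1280 to 2180 and 9190 to 15000 CPM in the small intestine and 2210 to 2840 and 6540 to 6650 CPM in the colon. Most of the GFP-positive sums was C3 alone, at 7380 to 11600 CPM and 4760 to 4900 CPM, beside 883 to 1510 and 1140 to 1470 CPM without GFP. Of 14 genes of the PDGFRA-high telocyte, 1 rose and 2 fell in the small intestine, and 11 fell in the colon (median -4.00), where the summed level went from 2540 to 2670 CPM down to 638 to 669 CPM. Some of the trophocyte genes (C3, Il33 and Procr) are also among the 34 adventitial genes.

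Counts and TPM differed in some libraries for Dpp4 and Pi16. In small intestinal GFP-positive replicates 1 and 2, Dpp4 was at 1.66 and 0.887 CPM but at 3.78 and 0.264 rescaled TPM. Pi16 in replicates 1 and 3 of that group was at 49.0 and 107 CPM and at 68.1 and 228 rescaled TPM. The cause was not tested.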
